A study of Saccharomyces cerevisiae with 6 samples.

Results

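The aminoacyl-tRNA synthetases of budding yeast (Saccharomyces cerevisiae) were followed here in a comparison of the yra1-1 temperature-sensitive mutant with a Yra1 wild-type strain. The set holds 31 genes, 18 for enzymes of the cytosol and 13 for enzymes of the mitochondrion. Members were found by gene symbol in the platform annotation, and all 31 were present, as 35 of the 7680 features (spotted probes) on the array. The cytosolic enzymes had 21 features and the mitochondrial enzymes 14. GUS1, FRS1, VAS1 and MST1 had 2 features each.

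Both strains were kept at 37 °C, which the labels call non-permissive, so mutant and wild type share the heat exposure. Total RNA of both strains was set against each other directly on 6 two-colour arrays. By the labels, arrays 1, 4 and 6 carried the mutant in channel 1, and arrays 2, 3 and 5 carried it in channel 2. The title of array 1 opens with the letters mex, which the other titles lack and which no label explains. Apart from that, the labels name no further allele or marker of either strain. They also do not say whether separate cultures were grown, so a p-value here reflects only array-to-array spread, possibly technical.

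A synthetase joins an amino acid to its tRNA, the step that sets which amino acid a codon brings into a protein. Yeast uses nuclear genes for a cytosolic set, which serves most protein synthesis, and for a smaller mitochondrial set, which serves the few proteins made on mitochondrial ribosomes. ALA1, GRS1, HTS1 and VAS1 are known to supply both compartments from a single gene. The enzymes fall into 2 structural classes, I and II, with unrelated catalytic folds. Cytosolic synthetase genes belong to the highly expressed translation genes of growing yeast, and several respond to Gcn4, the activator of amino acid starvation. Yra1 is an RNA-binding adaptor for the export of messenger RNA from the nucleus.

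Values are centred log2 ratios, so 0 is the median feature of an array. They are read in 2 ways, since the labels do not settle the direction. In the turned contrast, each array keeps its sign where the mutant was in channel 1 and is turned over where it was in channel 2. In the other reading, the columns are taken as deposited. No source used here gives the channel in the numerator, so no side can be named as mutant or wild type, and results are given as positive or negative. Across all features, arrays with the same labelled channel assignment correlated at a median r of 0.259 (6 pairs, 0.0417 to 0.386). Arrays of opposite assignment had a median r of −0.0347 (9 pairs, −0.135 to 0.326), so the ranges overlapped. Across the 35 synthetase features the medians were 0.195 (−0.143 to 0.545) and 0.0545 (−0.567 to 0.232) in the same order. These correlations are across features, which share arrays and are not replicates. The genes that check the strains do not follow the labelled channel. As deposited, array 1 stands apart: YRA1 lay at −1.39 there and at 1.00 to 3.49 on the others, TRP1 at −3.48 there and 2.76 to 4.16 on the others, and URA3 at 3.19 there and −5.92 to −2.21 on the others. Turned by the labels, arrays 4 and 6 stand apart instead. TRP1, turned, lay at 4.16 and 2.76 on arrays 4 and 6 and between −3.84 and −3.22 on the others, and YRA1 at 1.21 and 1.00 there and between −3.49 and −1.39 on the others. URA3, turned, lay at −5.92 and −4.25 there and between 2.21 and 3.46 on the others. In either reading, therefore, some arrays carry these genes on the side opposite to the rest, and the turned values of arrays 4 and 6 carry this doubt in all that follows. With array 1 alone turned over, the columns as deposited carry each of these genes on 1 side of 0 on all 6 arrays. For genes other than YRA1, TRP1 and URA3, whether the turned values follow the strain or only the labelled channel was not tested. The compartment medians are given without array 1, 4 or 6, and the members with the smallest p-values also without array 1.

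No synthetase passed the test in either reading, and the cytosolic and mitochondrial sets lay apart by less than the spread between arrays. In the turned contrast 0 of 35 member features passed as positive and 0 as negative (limma, Benjamini-Hochberg over all 7680 features, threshold 0.05). Among all features 0.013% passed as positive and 0% as negative, by the same test. The adjusted p of the members ran from 0.254 to 0.997. At an unadjusted p under 0.05, 5 features were negative and 1 was positive, all 6 of them cytosolic, against 5.48% negative and 7.51% positive among all features.

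The cytosolic enzymes had a median fitted value of −0.45 over 18 genes, and 14 of these genes were negative. The mitochondrial enzymes had a median of 0.16 over 13 genes, and 5 of them were negative. Over all features 46.5% had a negative fitted value. The difference of both medians, cytosolic minus mitochondrial, was −0.62 in the turned contrast.

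Array by array, that difference was most negative on arrays 2 and 4. The turned difference of the medians was −1.55 for array 2, −0.92 for array 4 and −0.54 for array 5. Arrays 1, 3 and 6 gave 0.18, 0.092 and 0.22, on the other side of 0. The mean over arrays was −0.42 ± 0.72 (SD, n = 6), with 3 arrays on each side of 0. Without array 1 it was −0.54 ± 0.73 (SD, n = 5).

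The array titles carry a number read here as a day, coded 1 to 4. Arrays 2 and 4 are each the sole array of their labelled day, coded 3 and 2. Arrays 5 and 6 share day 1 and arrays 1 and 3 share day 4, each pair with the mutant in opposite channels. By their titles, arrays 1 and 3 also share a slide number, as slides 5a and 5b. Whether these are parts of the same slide is not stated. Within day 1, the turned median was 0.31 for cytosolic and 0.25 for mitochondrial enzymes, a difference of 0.057. Within day 4 it was −0.26 for cytosolic and −0.22 for mitochondrial enzymes, a difference of −0.045. Here the turned values of both arrays were averaged for each gene before the median was taken. By this measure both days gave a difference near 0, and the cytosolic median had opposite signs in them. The single arrays gave −0.54 (array 5) and 0.22 (array 6) on day 1, and 0.18 (array 1) and 0.092 (array 3) on day 4. As deposited, YRA1, TRP1 and URA3 each kept their sign between arrays 5 and 6 and changed it between arrays 1 and 3. The day 1 value would thus cancel a difference that follows these genes. In the fit, the difference was −0.020 without array 2. It was −0.71 without array 1, −0.47 without array 4 and −0.57 without array 6. With labelled day as a fixed block it was 0.17. That block drops the MST1 feature without a value on array 1, and it fits arrays 2 and 4 exactly. Its value therefore rests on arrays 1, 3, 5 and 6, the arrays of the within-day comparison. The cytosolic median itself was −0.18 without array 2, −0.16 without array 4, −0.58 without array 6 and −0.53 without array 1. The mitochondrial median was −0.16 without array 2, 0.31 without array 4, −0.0070 without array 6 and 0.18 without array 1.

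As deposited, the cytosolic median was −0.23, −1.25 and 0.035 on arrays 1, 4 and 6, where the mutant was in channel 1. It was 0.79, 0.30 and 0.010 on arrays 2, 3 and 5, where the mutant was in channel 2. The assignments overlapped, since array 6 was above array 5. The mitochondrial median was −0.41, −0.33 and −0.19 on arrays 1, 4 and 6, and −0.76, 0.39 and −0.53 on arrays 2, 3 and 5, so it was negative on every array but array 3.

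The ribosomal proteins, the other large product of translation genes, were split by compartment in the same way for comparison. Cytosolic ribosomal proteins (136 genes) had a turned median of −0.72, and mitochondrial ribosomal proteins (72 genes) of −0.027. Their per-array difference was −0.66 ± 0.89 in the turned reading (SD, n = 6), and its far value was on array 5, at −2.31, where the synthetases showed −0.54. On array 2, where the synthetases lay farthest apart, the ribosomal proteins showed −0.40. The difference between the synthetase and ribosomal protein splits was not tested.

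**Figure D1:**
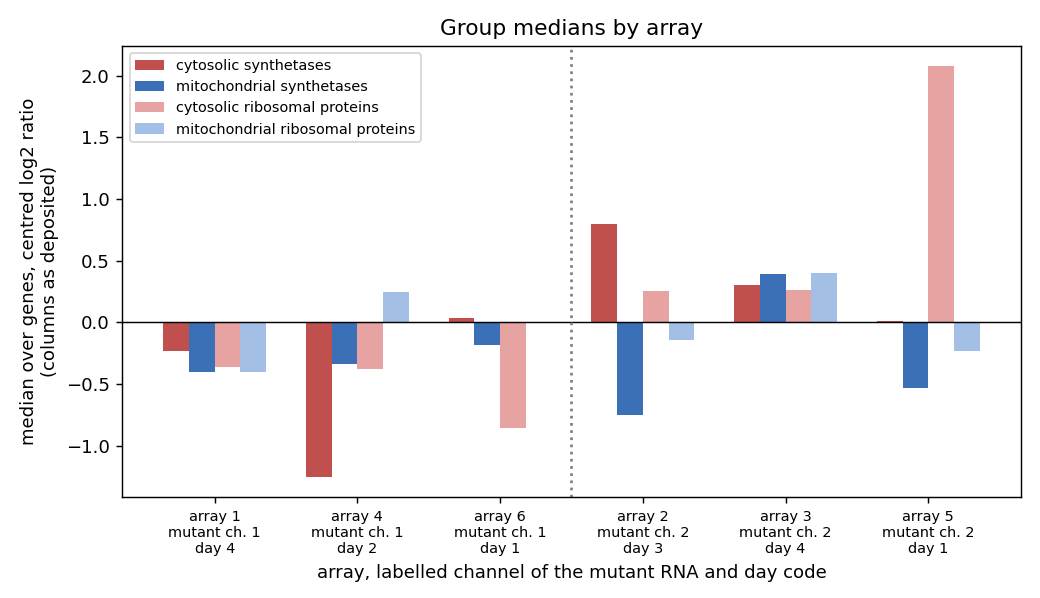
Bars give the median over genes of the centred log2 ratio, columns as deposited, for cytosolic and mitochondrial synthetases and for cytosolic and mitochondrial ribosomal proteins. Arrays with the mutant in channel 1 stand left of the dotted line and those with it in channel 2 right of it. The cytosolic and mitochondrial synthetase bars are farthest apart on array 2 (0.79 and −0.76) and array 4 (−1.25 and −0.33), and the cytosolic ribosomal proteins are highest on array 5.

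Among the cytosolic enzymes, the smallest p-values in the turned contrast belonged to DPS1, VAS1 and GUS1, all negative. DPS1, aspartyl-tRNA synthetase, lay at −1.11, 0.22, −0.99, −2.14, −1.03 and −1.70 on arrays 1 to 6, turned. It was negative on 5 of 6 arrays, with array 2 on the other side. Its fitted value was −1.12 ± 0.33 (SE, 6 arrays, limma adjusted p = 0.254) and −1.26 without array 1, and its adjusted p ran from 0.163 to 0.964 over the other settings tried.

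VAS1, valyl-tRNA synthetase, is used in both compartments. Its feature 2974 lay at −0.73, −0.62, −0.35, −2.85, −1.70 and −1.13 on arrays 1 to 6, turned, which is negative on all 6. The fitted value was −1.23 ± 0.37 (SE, limma adjusted p = 0.264), and −1.44 without array 1. The 8 features that lie 1, 2, 20 and 21 identifiers away on either side, called its neighbours by identifier, had a median of −0.55. After the median of such neighbours was subtracted on each array, VAS1 stood at −0.68.

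GUS1, glutamyl-tRNA synthetase, works in a complex with methionyl-tRNA synthetase and the cofactor Arc1. Its feature 2948 lay at −0.99, 0.057, −1.26, −1.39, −2.46 and −0.99 on arrays 1 to 6, turned. It was negative on all arrays but array 2, where it was close to 0, and its fitted value was −1.17 ± 0.37 (SE, limma adjusted p = 0.266), and −1.21 without array 1.

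HTS1, KRS1 and GRS1, picked out after their values were seen, were the other cytosolic genes with an unadjusted p under 0.05. KRS1, lysyl-tRNA synthetase, lay between −2.18 and −0.11 over the 6 arrays, turned, with a fitted value of −0.90 ± 0.35 (SE, limma adjusted p = 0.311). GRS1, glycyl-tRNA synthetase, lay between −1.73 and −0.13, with a fitted value of −0.89 ± 0.35 (SE, limma adjusted p = 0.321). HTS1, histidyl-tRNA synthetase, lay on the other side on every array, between 0.14 and 1.55, at 0.87 ± 0.30 (SE, limma adjusted p = 0.287). Its neighbours by identifier had a median of 0.65, and with the neighbourhood median subtracted HTS1 stood at 0.24. VAS1 (feature 2974), KRS1 and GRS1 were thus negative on all 6 arrays, and HTS1 positive on all 6. Among the 7592 features with 6 values, 4.31% were negative and 2.98% positive on all arrays.

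GLN4, glutaminyl-tRNA synthetase, had the most negative fitted value of the set and also the widest spread. It lay at −5.47, −0.56, −4.03, −2.06, 2.40 and −0.16 on arrays 1 to 6, turned, and at −1.65 ± 0.77 in the fit (SE, limma adjusted p = 0.395). Arrays 1 and 3, which share a labelled day and slide number, carried its 2 most negative values, and array 5 was on the other side.

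SES1, for serine, was at −0.80, TYS1, for tyrosine, at −0.51, and MES1, for methionine, at −0.48 in the turned contrast. DED81 (asparagine) was at −0.43, ILS1 (isoleucine) at −0.34 and THS1 (threonine) at −0.34. FRS2 (phenylalanine), the alpha subunit of an enzyme of 2 kinds of subunit, was at −0.19, and FRS1, its beta subunit, at −0.20 as the mean of 2 features. These genes differed from 0 by less than 2 standard errors. CDC60, leucyl-tRNA synthetase, was positive at 0.41 ± 0.40 (SE), and ALA1 (alanine) and WRS1 (tryptophan) were at 0.033 and 0.028. SES1 and KRS1 lie 2 identifiers apart, and the marker gene TRP1 lies 2 identifiers from SES1. As deposited, SES1 lay between −2.76 and 1.10, and it had the sign of TRP1 on arrays 1, 2 and 3 and the opposite sign on arrays 4, 5 and 6. The part of TRP1 in the values of SES1 was not tested.

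**Figure D2:**
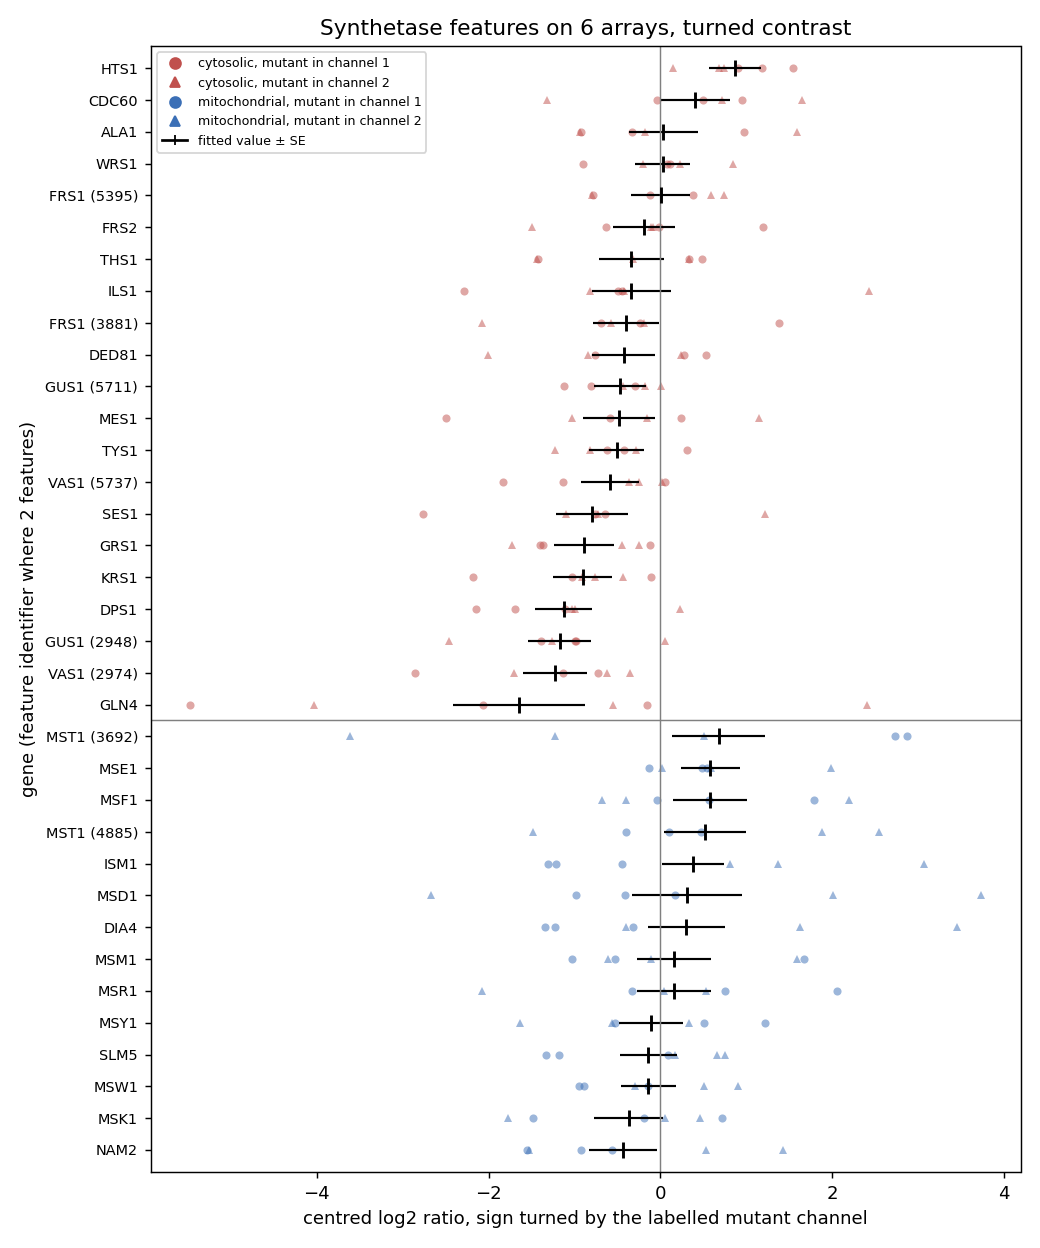
Each row is a synthetase feature, cytosolic above the line and mitochondrial below it, sorted by fitted value. Points are the centred log2 ratios of the 6 arrays with the sign turned by the labelled mutant channel, and black bars are the fitted value ± SE. VAS1 (2974), KRS1 and GRS1 lie left of 0 and HTS1 right of 0 on every array, whereas GLN4 runs from −5.47 to 2.40.

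Among the mitochondrial enzymes no feature reached an unadjusted p under 0.05 in the turned contrast, and none of the 13 features with 6 values had the same turned sign on all arrays. The smallest p-values belonged to MSE1, MSF1 and MST1, each positive. MSE1, mitochondrial glutamyl-tRNA synthetase, lay at 0.55, 0.59, 0.023, 0.48, 1.99 and −0.13 on arrays 1 to 6, turned. It was positive on 5 of 6 arrays, with its far value on array 5, and its fitted value was 0.58 ± 0.35 (SE, limma adjusted p = 0.537). The value was 0.52 without array 1 and 0.30 without array 5. Its neighbours by identifier had a median of 0.42, and with the neighbourhood median subtracted MSE1 stood at 0.13.

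MSF1, mitochondrial phenylalanyl-tRNA synthetase, which works as a single chain, lay at −0.038, 2.20, −0.40, 1.79, −0.68 and 0.56 on arrays 1 to 6, turned. Its positive values were mainly those of arrays 2 and 4, and the fitted value was 0.57 ± 0.43 (SE, limma adjusted p = 0.654). It was 0.78 without array 1, 0.12 without array 2 and 0.32 without array 4. Its neighbours by identifier had a median of 0.65, and with the neighbourhood median subtracted it stood at −0.023. With labelled day as a fixed block it stood at −0.14.

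MST1, mitochondrial threonyl-tRNA synthetase, was at 0.68 ± 0.54 for its feature 3692 (SE, 5 arrays, limma adjusted p = 0.684), which lay at 0.51, −1.23, 2.87, −3.62 and 2.73 on arrays 2 to 6, turned. Its values were spread over both sides of 0, with the far ones on arrays 4, 5 and 6, and the fit gave 0.19 without array 2 and 1.22 without array 5. Its second feature was at 0.52 ± 0.48 (SE).

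The other mitochondrial enzymes lay between −0.43 and 0.38 in the turned contrast. NAM2, the leucyl enzyme that also helps to splice mitochondrial introns, was at −0.43 ± 0.40 (SE). MSK1 (lysine) was at −0.37, MSW1 (tryptophan) at −0.14, SLM5 (asparagine) at −0.14 and MSY1 (tyrosine) at −0.11. On the positive side, ISM1 (isoleucine) was at 0.38, MSD1 (aspartate) at 0.31, DIA4 (serine) at 0.30, and MSM1 (methionine) and MSR1 (arginine) at 0.16 each. The mitochondrial features had a median SE of 0.42, against 0.37 for the cytosolic features and 0.36 for all features.

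In the columns as deposited, 0 of 35 synthetase features passed. Among all features 0.573% passed as positive and 1.08% as negative, shares too small to set 35 features apart from the rest. At an unadjusted p under 0.05, 1 member feature was positive and 2 were negative, all mitochondrial, against 6.13% positive and 7.33% negative among all features. The cytosolic median was −0.12 (11 of 18 genes negative) and the mitochondrial median −0.28 (8 of 13 genes negative), with a negative fitted value for 48.5% of all features. Without array 1 the cytosolic median was −0.19 and the mitochondrial median −0.35. Without array 4 they were 0.042 and −0.44, and without array 6 −0.15 and −0.48, cytosolic first. The per-array difference of the medians, cytosolic minus mitochondrial, was 0.25 ± 0.81 (SD, n = 6), positive on 4 arrays. Without array 1 it was 0.26 ± 0.90 (SD, n = 5). In the fit the difference was 0.16. With array 1 turned over, which puts YRA1, TRP1 and URA3 each on 1 side on all arrays, it was −0.037. The lowest limma adjusted p of a member was then 0.397.

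ISM1, mitochondrial isoleucyl-tRNA synthetase, was the 1 member feature with the same deposited sign on all 6 arrays. It was negative on all of them, as were 4.03% of all features, and 4.06% were positive on all. It lay at −1.22, −0.81, −1.37, −1.31, −3.07 and −0.45 on arrays 1 to 6, with a fitted value of −1.37 ± 0.36 (SE, limma adjusted p = 0.0921). The value was closer to 0 when the neighbourhood median was subtracted (−0.71, limma adjusted p = 0.304). With labelled day as a random block it was −1.40, with a limma adjusted p of 0.0385, and without array 1 it was −1.32. With array 1 turned over it was −0.97, with a limma adjusted p of 0.560, and without array 5 it was −1.04. Its adjusted p ran from 0.0385 to 0.560 over the alternatives.

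MST1 gave the largest fitted value of the set in this reading, at its feature 3692. It had no value on array 1 and lay at −0.51, 1.23, 2.87, 3.62 and 2.73 on arrays 2 to 6. The fitted value was 2.12 ± 0.54 over those 5 arrays (SE, limma adjusted p = 0.0854). Without array 2, its negative value, the fit gave 2.61 with a limma adjusted p of 0.0289, and with quantile normalization 2.26 with a limma adjusted p of 0.0405. Its adjusted p ran from 0.0289 to 0.397 over the alternatives. Its second feature, 4885, did not share this: it lay at −0.41, −2.55, 1.48, 0.47, −1.88 and 0.096 on arrays 1 to 6, with a fitted value of −0.46 ± 0.48 (SE, limma adjusted p = 0.793).

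DIA4, mitochondrial seryl-tRNA synthetase, picked out after its values were seen, lay at −1.22, −3.45, −1.63, −0.32, 0.40 and −1.34 on arrays 1 to 6 as deposited. Array 5 was its exception, and without that array it stood at −1.75 ± 0.37 (SE, limma adjusted p = 0.0438), against −1.26 ± 0.45 over all 6 (SE, limma adjusted p = 0.206). DED81, for cytosolic asparaginyl-tRNA synthetase, has the identifier next to that of DIA4 and lay at 0.53, 2.01, −0.25, −0.76, 0.84 and 0.28 as deposited, on the opposite side to DIA4 on arrays 1, 2 and 6.

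Of the cytosolic enzymes, ILS1 and DPS1 had the smallest p-values in the columns as deposited. ILS1, isoleucyl-tRNA synthetase, lay at −0.44, 0.82, 0.42, −2.28, −2.43 and −0.50 on arrays 1 to 6, with a fitted value of −0.74 ± 0.46 (SE, limma adjusted p = 0.576). Arrays 4 and 5 were low, and the value was −0.23 without array 5 and −0.89 without array 1. DPS1 lay at −1.11, −0.22, 0.99, −2.14, 1.03 and −1.70 as deposited, with a fitted value of −0.52 ± 0.33 (SE, limma adjusted p = 0.581). That value was −0.66 without array 1 and −0.15 with array 1 turned over. Its values followed the labelled channel except on array 2.

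**Figure D3:**
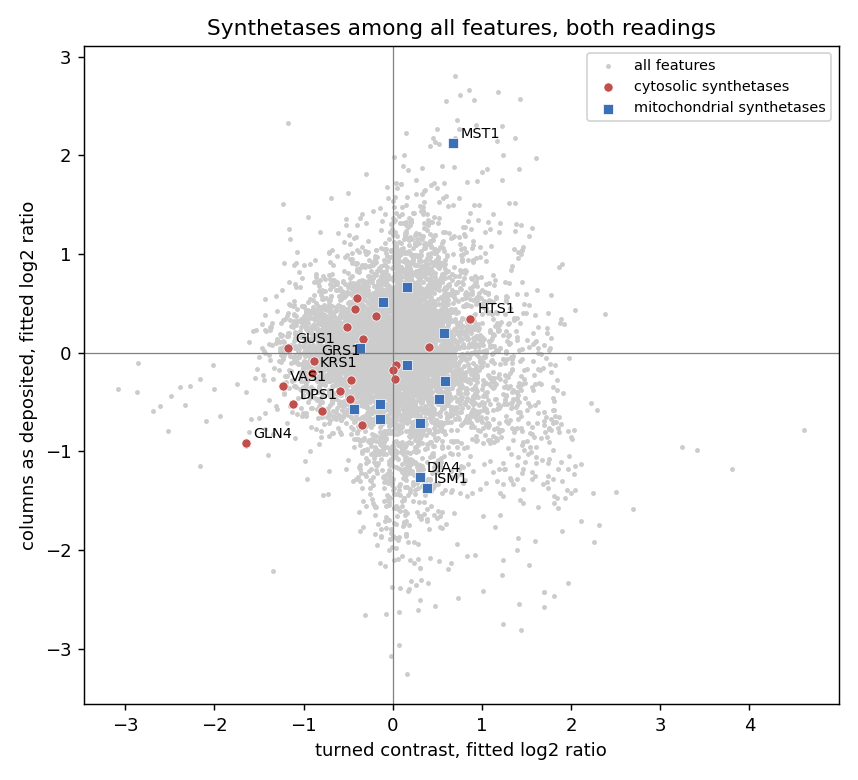
Each point is a feature, with its fitted log2 ratio in the turned contrast on the x axis and in the columns as deposited on the y axis; grey points are all 7680 features, and named points have an unadjusted p under 0.05 in either reading, besides GLN4. Cytosolic synthetases (circles) spread mainly along the x axis, from −1.65 for GLN4 to 0.87 for HTS1, and mitochondrial synthetases (squares) along the y axis, from −1.37 for ISM1 to 2.12 for MST1.

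The 4 genes with 2 features show how far a value can be read as a property of the gene. For GUS1 both features had the same sign on 6 of 6 arrays, with a mean gap of 0.763 log2 units between them. Its feature 5711 lay at −0.30, 0.008, −0.43, −0.81, −0.18 and −1.12 on arrays 1 to 6, turned, and at −0.47 ± 0.30 in the fit (SE, limma adjusted p = 0.577), on the same side as feature 2948 but closer to 0. For VAS1 the signs matched on 4 of 6 arrays with a mean gap of 0.651, and feature 5737 lay at 0.050, −0.25, −0.37, −1.83, 0.019 and −1.14, turned, with a fitted value of −0.59 ± 0.34 (SE, limma adjusted p = 0.517). Both features of GUS1 and of VAS1 were thus negative in the fit, with the larger size at the feature named above. For FRS1 the signs matched on 2 of 6 arrays with a mean gap of 0.929. Its feature 3881 lay at −0.23, −2.08, −0.20, −0.69, −0.57 and 1.38 on arrays 1 to 6, turned, and at −0.40 ± 0.39 in the fit (SE). Its feature 5395 lay at 0.38, −0.80, 0.59, −0.78, 0.74 and −0.12, and at 0.0029 ± 0.34 in the fit (SE). For MST1 the signs matched on 4 of 5 arrays, but the gap averaged 2.56 log2 units and was widest on array 5, where its features lay at 3.62 and −1.88.

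**Figure D4:**
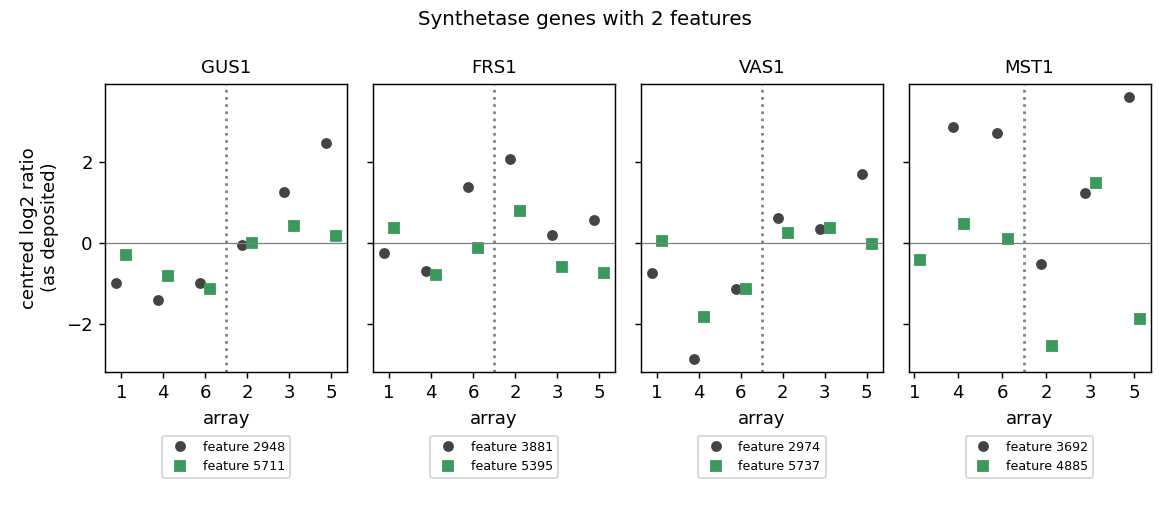
Centred log2 ratios as deposited of both features of GUS1, FRS1, VAS1 and MST1 on each array, with arrays 1, 4 and 6 (mutant in channel 1) left of the dotted line. GUS1 features lie on the same side of 0 on every array, whereas the MST1 features are 2.56 log2 units apart on average.

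For 12 amino acids both a cytosolic and a mitochondrial enzyme are in the set, which allows a comparison within the same chemistry. In the turned contrast the cytosolic minus mitochondrial difference had a negative mean over arrays for 10 of the 12 pairs. For 11 of the 12 the mean was smaller than its own SD over the 6 arrays. The largest negative means were those of aspartate and glutamate, the largest positive mean that of leucine, followed by tryptophan.

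For aspartate, DPS1 minus MSD1 was −1.28, −1.79, 1.68, −1.73, −4.76 and −0.71 on arrays 1 to 6, with a mean of −1.43 ± 2.07 (SD, n = 6). Array 3 was on the other side. For glutamate, GUS1 minus MSE1 was −1.19, −0.56, −0.87, −1.58, −3.31 and −0.93, with a mean of −1.41 ± 0.99 (SD, n = 6). This was the 1 pair of the 12 with a mean larger than its SD, and all 6 arrays were negative. As deposited its mean was 0.17 ± 1.82 (SD, n = 6).

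For leucine, CDC60 minus NAM2 was 2.50, 1.12, 0.21, 1.06, −0.71 and 0.88, with a mean of 0.84 ± 1.06 (SD, n = 6). Array 5 was its exception. For tryptophan, WRS1 minus MSW1 was 0.22, −0.29, 0.096, 0.044, −0.053 and 1.00, with a mean of 0.17 ± 0.44 (SD, n = 6), the smallest spread of the pairs.

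Counted by array, the pair difference was negative for 11 of 12 amino acids on array 2 and for 9 of 12 on array 4. Arrays 5 and 6 each had 7 negative pairs, array 3 had 4 and array 1 had 3. Arrays 2 and 4 thus had the most negative pairs, and they also had the most negative differences of the compartment medians. Pairs and medians draw on the same values, so this match is not a separate observation.

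**Figure D5:**
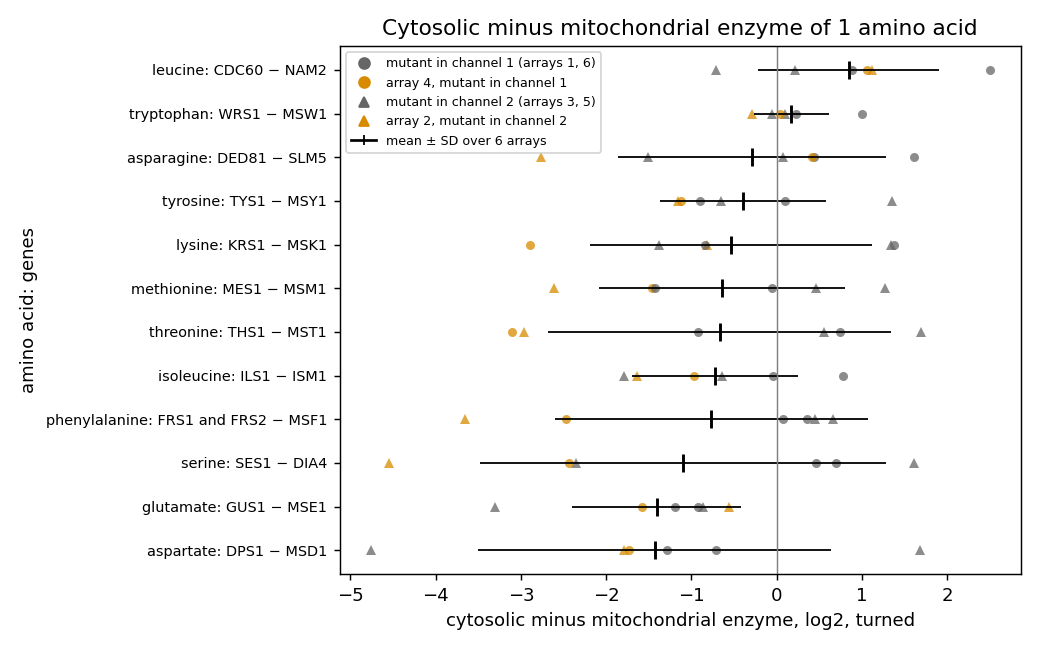
Rows are amino acids with a cytosolic and a mitochondrial enzyme; points give the cytosolic minus mitochondrial log2 difference on each array, turned, with arrays 2 and 4 in orange, and black bars the mean ± SD over 6 arrays. Most bars cross 0, and the glutamate pair (GUS1 minus MSE1) is negative on every array.

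The structural classes had similar medians. Class I had a turned median of −0.14 over 15 genes and class II of −0.19 over 16 genes. Within the cytosolic set the medians were −0.49 for class I and −0.38 for class II, and within the mitochondrial set 0.16 for class I and 0.30 for class II. The 4 genes that supply both compartments had a turned median of −0.43, against −0.45 for the other 14 cytosolic genes. These 4 lay on both sides of 0: VAS1, as the mean of its features, was at −0.91 and GRS1 at −0.89, whereas ALA1 was at 0.033 and HTS1 at 0.87.

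Signal strength is unknown, since scanner intensities were not used here. Values were marked where the ratio is that of whole numbers with a product below 10000000. Such a mark does not by itself show a dim spot. Such values made up 22.2% of the cytosolic, 20.5% of the mitochondrial and 17.9% of all values, but they were spread unevenly over the arrays. On array 1, 10 of 21 cytosolic and 7 of 13 mitochondrial features had such a value, against 36.8% of all features. On array 2, which had the most negative compartment difference, 11 of 21 cytosolic and 3 of 14 mitochondrial features did, against 33.2% of all. On the other arrays 0 to 4 cytosolic and 1 to 3 mitochondrial features did, against 5.74% to 14.0% of all. Their part in the difference on array 2 was not tested. Without these values 29 member features could be tested, and the turned difference of the compartment medians was −0.74.

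Other genes around tRNA charging, read from lists, included 0 that passed in the turned contrast. The list of other synthetases and cofactors held 9 genes: the arginyl (YDR341C), prolyl (YHR020W) and cysteinyl (CRS1) enzymes, the prolyl-like AIM10, the GRS1 paralog GRS2, the cofactor gene ARC1, and the mitochondrial amidotransferase genes HER2, PET112 and GTF1. In the turned contrast 0 of their 12 features passed, with a median of −0.11 over genes. Their smallest p-value belonged to GRS2, which lay at 2.78, −0.11, 1.24, 1.49, 1.02 and 0.24 on arrays 1 to 6, turned, with a fitted value of 1.11 ± 0.39 (SE, limma adjusted p = 0.286). Array 1 held its highest value and array 2 its negative one. GRS2 and GRS1 are related in sequence and could share signal, but they lay on opposite sides, with GRS1 at −0.89.

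Of 10 genes of tRNA maturation and export (12 features), 0 passed in the turned contrast, with a median of −0.042. TPT1, the phosphotransferase that completes tRNA splicing, had the smallest p-value. It lay at 2.20, 0.011, 1.76, 3.04, 3.09 and 0.54 on arrays 1 to 6, turned, positive on all 6, with a fitted value of 1.77 ± 0.45 (SE, limma adjusted p = 0.224). Of 5 genes of amino acid starvation signalling (7 features), 0 passed in the turned contrast, with a median of −0.33. Their smallest p-value was that of GCN3, an eIF2B subunit, at its feature 4019. It lay at −0.62, −0.11, −0.51, −0.62, −1.60 and −0.49 on arrays 1 to 6, turned, and at −0.66 ± 0.32 in the fit (SE, limma adjusted p = 0.416). The second GCN3 feature was at −0.28.

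In the columns as deposited, a GCN1 feature of that list passed on the positive side, where 0.573% of all features did. Gcn1 helps the kinase Gcn2 to sense uncharged tRNA. This feature, 1730, lay at 1.80, 1.29, 0.47, 1.74, 1.74 and 2.97 on arrays 1 to 6, with a fitted value of 1.67 ± 0.34 (SE, limma adjusted p = 0.0323). Unlike YRA1, TRP1 and URA3, it kept its sign on array 1. The pass depended on the setting, since 0 of all features passed as deposited without array 4, and 0 without array 6. With array 1 turned over, 2 of 7680 features passed. The second GCN1 feature, 4370, was at 0.49 ± 0.39 (SE, limma adjusted p = 0.685), and the kinase gene GCN2 at −0.54. Of the 3 elongation factor genes that deliver charged tRNA, 0 passed in either reading. In the turned contrast TEF2 was at −0.64 ± 0.37, TEF1, which encodes the same protein, at −0.89 ± 0.62 and mitochondrial TUF1 at 0.068 ± 0.40 (SE). TEF2 lay at −0.37, −0.062, −0.14, −0.21, −2.28 and −0.82 on arrays 1 to 6, turned, lowest on array 5. As deposited, array 5 gave 4.87 for TEF1, whereas the other arrays gave −1.19 to 0.52. TEF1 and TEF2 are nearly identical and may share signal, so their values are uncertain as separate genes.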

How the data were processed

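Centred log2 ratios were computed from the deposited log10 ratios of 6 two-colour arrays, with base 10 read from the values; for the authors' image analysis, filtering, normalization and numerator channel, nothing is given in the sources used here. Of 7684 rows, 1 had no numeric identifier and was dropped, and rows sharing an identifier (3 cases) were averaged. Of the resulting 7680 features, 6695 came with 1 gene symbol, 0 with several and 985 with none. All 31 members also matched the current R64 gene table, and the cysteinyl enzyme was matched through its gene identifier. The files name no genome build, so no coordinates are given.

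Each array was centred on its median. limma 3.58.1 (lmFit and eBayes, R 4.3.3) fitted a sign term for the labelled mutant channel and a term for the columns as deposited, for features measured on 4 or more arrays, with 2 or more of each assignment. Tests are two-sided, adjusted by Benjamini-Hochberg over all features, with a threshold of 0.05. The fit was tested on simulated data. Features of a gene were averaged for medians and pairs, which have no test. Ratios of whole numbers were recognised within a relative tolerance of 1.2e-09 and a product below 10000000. The number of arrays limits the precision.

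Members and lists were chosen with earlier results of these data known. All members are named. Given array by array are, per compartment, the 3 smallest p-values in the turned contrast and the 2 in the columns as deposited, genes with 2 features, the pairs with the 2 largest differences on each side, and the smallest p-value of each other list. Alternatives left out each array, subtracted the median of features 1, 2, 20 and 21 identifiers away, or left out the ratios of whole numbers. Others used labelled day as a fixed or random block, turned array 1 over or used quantile normalization. The rest centred on named features or kept features with values on all 6 arrays.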

Additional observations from a re-analysis of the deposited data

Results flagged for a closer look

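In 3 of the 76 sets of array values examined, the lowest or highest array stood far from the rest by Dixon's criterion, which chance meets in about 1 in 20 sets. ISM1 lay at −3.07 on array 5 as deposited, against −1.37 to −0.45 on the other arrays. MSE1 lay at 1.99 on array 5, turned, against −0.13 to 0.59 on the others. NAM2 lay at 1.53 on array 3 as deposited, against −1.55 to −0.53 on the others.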

How the results depend on the processing

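The count of member features passing in the turned contrast was 0 under every alternative run, where at most 4 of all features passed. At an unadjusted limma p under 0.05 it was 2 to 9. In the main fit, 5.48% of all features were negative and 7.51% positive at that p. That share is not given here for the alternatives, so the counts under them have no matching background. In the columns as deposited the count was 0 to 1 when each array was left out (MST1 without array 2, DIA4 without array 5). It was 2 with labelled day as a random block (MST1 and ISM1), 1 with quantile normalization (MST1) and 0 under the others. In these settings MST1 stood at 2.61, 2.28 and 2.26 and ISM1 at −1.40. Among all features, 69 of 7656 passed without array 2 and 214 of 7670 without array 5. With the random block 257 of 7680 passed, and with quantile normalization 168 of 7680. The main fit passed 127 of 7680. Fewer passed in other settings: 15 of 7646 without array 3, 0 without array 4 and 0 without array 6. With the neighbourhood correction 3 of 7680 passed, and with array 1 turned over 2 of 7680. The cytosolic minus mitochondrial median was −0.77 to −0.020 in the turned contrast and −0.067 to 0.49 as deposited when each array was left out. With labelled day as a fixed block, which rests on arrays 1, 3, 5 and 6 alone, it was 0.17 in the turned contrast. Under the other alternatives there it was between −0.74 and −0.58. MSF1 changed sign with the neighbourhood correction (−0.023) and with labelled day as a fixed block (−0.14); the cause was not tested. With array 1 turned over the difference was −0.58 in the turned contrast and −0.037 as deposited, and the lowest adjusted p of a member was 0.964 and 0.397. The neighbourhood correction and labelled day as a fixed block each changed the sign of 8 member features in the turned contrast. The labels give no replicate numbers to match arrays by, so arrays were paired by labelled day alone. Each array sets mutant against wild type directly, and the opposite-channel arrays of a labelled day are compared in the report.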
